A study of Mus musculus with 4 samples.

Results

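The genes described here are 10 transcripts that respond to glucocorticoids or to the hormonal state of fasting, Tsc22d3, Fkbp5, Per1, Klf9, Ddit4, Sgk1, Txnip, Pik3ip1, Mt1 and Mt2. They were chosen by name, and all 10 were found among the 11352 rows named as genes. The study sorted single ILC2 (innate lymphocytes of type 2, which live in tissues and secrete interleukin-5 and amphiregulin) from mouse pancreas into 4 plates and sequenced them with SORT-seq, a plate method built on CEL-seq2 that counts reads near transcript 3' ends. The labels give C57BL6J as genotype, and each plate held photoconverted (KIKR-Red) cells, non-photoconverted (KIKR-Green) cells and empty wells. KIKR is photoconvertible: violet light changes its emission to red for good, so a red cell is one that was illuminated earlier. The series title names fasting, but no label gives a feeding state, an animal or an age for any cell, so nothing below compares fed with fasted mice.

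Glucocorticoids are adrenal steroids that bind the glucocorticoid receptor Nr3c1, which then moves into the nucleus and switches on target genes. Their release follows the daily cycle and increases in fasting and stress. Insulin acts the other way on several of these genes, since it holds FOXO transcription factors out of the nucleus, and glucose acts on Txnip. In lymphocytes glucocorticoids are known for restraining cytokine output.

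The row names fitted plate 1 alone, where rows named as mitochondrial held 5.63% of the reads, against 0.0110 to 0.0531% on plates 2 to 4. The values below are therefore those of 1 plate, with no replicate, and no p-value was computed. On plate 1, 8 photoconverted and 98 non-photoconverted cells had at least 500 genes and under 25% mitochondrial reads. The photoconverted cells were deeper, with a median of 2748.5 genes and 540662 gene reads, against 1637 genes and 187689.5 gene reads in non-photoconverted cells. Spike-in rows had a median of 59283.5 reads per photoconverted cell and 67405 per non-photoconverted cell. Since detection depends on depth, each photoconverted cell was also set against the 5 non-photoconverted cells nearest to it in number of genes (29 distinct cells), called depth-matched below. The match fell short for photoconverted cell 4, whose 5129 genes and 1677643 gene reads exceeded every non-photoconverted cell (at most 4480 and 1274117). All cells matched to it were shallower, and it held Fkbp5, Per1, Tsc22d3 and Ddit4 at 16 reads or more. A gene counted as detected at 16 reads or more, and none of the 10 genes reached that in any of the 221 empty wells, which allows a share of up to 1.36% (3 counts of the total, the limit used for every 0 below). Other intervals are exact 95% binomial ones and cover counting error of cells only.

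Most of the 10 genes were detected in a minority of cells of either colour. Between photoconverted and depth-matched cells, 4 of the 10 had the larger share in photoconverted cells (Fkbp5, Per1, Mt1 and Mt2) and 6 the smaller (Txnip, Sgk1, Tsc22d3, Ddit4, Pik3ip1 and Klf9), where 53.4% and 39.9% of the genes tested were higher and lower. With these settings a difference of 25 percentage points or more was reached by Txnip alone, which was lower in photoconverted cells. That call depended on the settings: Fkbp5 reached 25 points higher with 3 or 10 nearest cells and 35 with matching on gene reads, where Txnip stood at -22.5. Among 5259 genes detected in at least 5% of all cells, 4.30% were lower by that much in photoconverted cells and 10.5% were higher. Of the 10 genes, 6 passed this filter, 2 of them higher and 4 lower in photoconverted cells, and Klf9, Pik3ip1, Mt1 and Mt2 did not. The larger shares of Mt1 and Mt2 both rest on the same photoconverted cell. The median difference was -7.5 points over the 6 that passed and -3.75 over all 10, against 2.5 over the 5259 genes. These values moved with the reads required and with the matching. The median over members that passed was 5 points at 4 reads or more and 5.99 without matching, and 7 of the 10 were higher in photoconverted cells at 4 reads or more, and 7 when all non-photoconverted cells were used without matching.

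**Figure D1:**
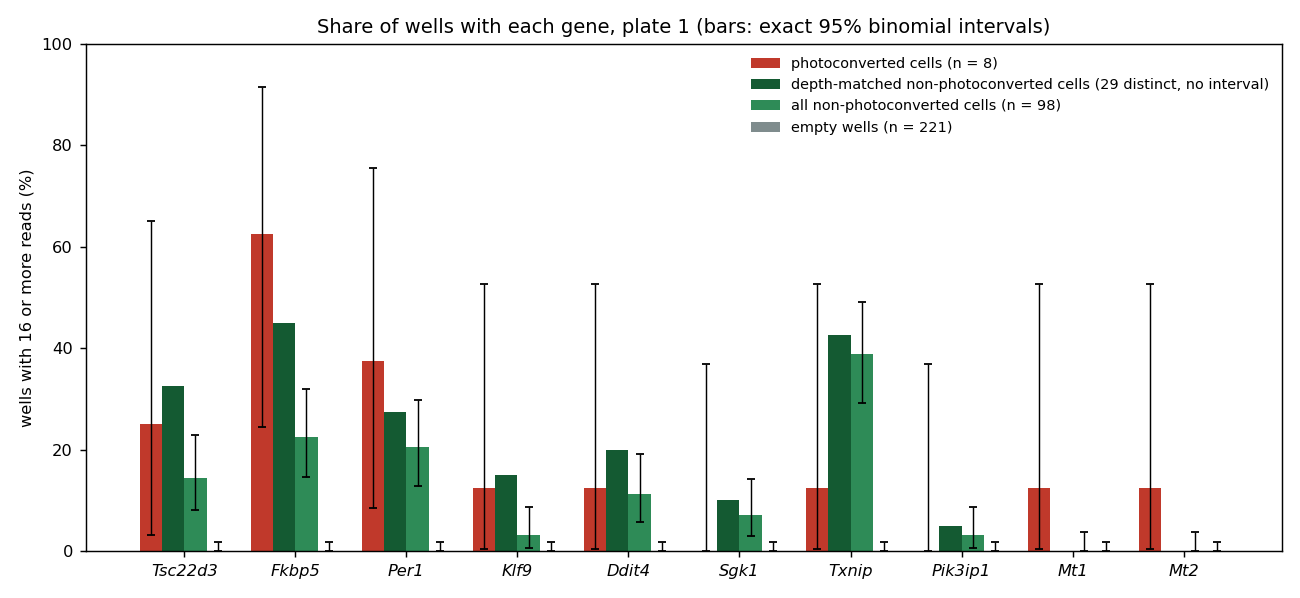
Share of wells of plate 1 with 16 or more reads (%) for each of the 10 genes, in photoconverted cells, depth-matched cells, all non-photoconverted cells and empty wells; lines are exact 95% binomial intervals, drawn for all but the depth-matched cells. Fkbp5 stands highest in photoconverted cells (62.5%), Txnip is at 12.5% there and 42.5% in depth-matched cells, and empty wells are at 0 throughout.

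At 16 reads Fkbp5, Per1 and Tsc22d3 were the members found most often in photoconverted cells, in 5, 3 and 2 of 8. Klf9 and Sgk1, also induced by glucocorticoids, were found in 1 and 0 of 8. At 1 read or more the order differed, with Fkbp5 in 6, Ddit4 in 5, Tsc22d3 in 4 and Per1 in 3 of 8. Fkbp5 (chromosome 17, 28399094 to 28517527, minus strand, mm10) encodes a co-chaperone that binds the receptor complex and lowers its affinity for hormone, a feedback loop. It had 3, 66, 287, 204, 0, 179, 63 and 0 reads in photoconverted cells 1 to 8, and a lowest of 0, a median of 0 and a highest of 164 in non-photoconverted cells. In reads, 3 photoconverted cells lay above every non-photoconverted cell. Per gene reads the groups overlapped throughout, with a highest of 503 reads per 1000000 gene reads (CPM) in photoconverted cells and 719 in non-photoconverted cells. The gene was detected in 5 of 8 photoconverted cells (interval 24.5 to 91.5%), in 45% of depth-matched cells and in 22 of 98 non-photoconverted cells (22.4%, interval 14.6 to 32%). Its mean level was 151 ± 185 CPM in photoconverted cells and 60.7 ± 144 in non-photoconverted cells (SD over cells), a log2 ratio of 1.19 after adding 10 to each mean. Ratios of 2-fold or more upwards were seen in 12.8% of the 5259 genes, and downwards in 27.5%. The spread between cells exceeded the difference in means.

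Tsc22d3 (chromosome X, 140539528 to 140600659, minus strand) encodes GILZ, a leucine zipper protein through which glucocorticoids dampen inflammatory signalling. It had 35, 15, 0, 68, 3, 0, 0 and 0 reads in photoconverted cells 1 to 8, and from 0 to 160 with a median of 0 in non-photoconverted cells. It passed 16 reads in 2 of 8 photoconverted cells (interval 3.19 to 65.1%), in 32.5% of depth-matched cells and in 14 of 98 non-photoconverted cells (14.3%, interval 8.04 to 22.8%). Its mean level was 18.5 CPM in photoconverted and 49.7 CPM in non-photoconverted cells (log2 ratio -1.06). Scaled to spike-in reads the ratio was 0.19, while the median over the 5259 genes was 0.98 on that scale and -0.25 per gene reads, so Tsc22d3 lay below the median on both. Per1 (chromosome 11, 69095217 to 69109960, plus strand), a clock repressor that glucocorticoids also induce directly, had 55, 30 and 30 reads in photoconverted cells 4, 6 and 7 and 0 in the other 5. It was detected in 3 of 8 photoconverted cells (interval 8.52 to 75.5%), in 27.5% of depth-matched cells and in 20 of 98 non-photoconverted cells (20.4%, interval 12.9 to 29.7%). Its mean level lay the other way, at 15.0 CPM in photoconverted, 31.7 in depth-matched and 39.0 in non-photoconverted cells (log2 ratio -0.97 against the last). At least 1 of Fkbp5, Tsc22d3 and Per1 was detected in 6 of 8 photoconverted cells (75%, interval 34.9 to 96.8%), in 75% of depth-matched cells and in 45.9% of non-photoconverted cells (interval 35.8 to 56.3%). For these 3 together the photoconverted interval includes the shares of both comparison groups.

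**Figure D2:**
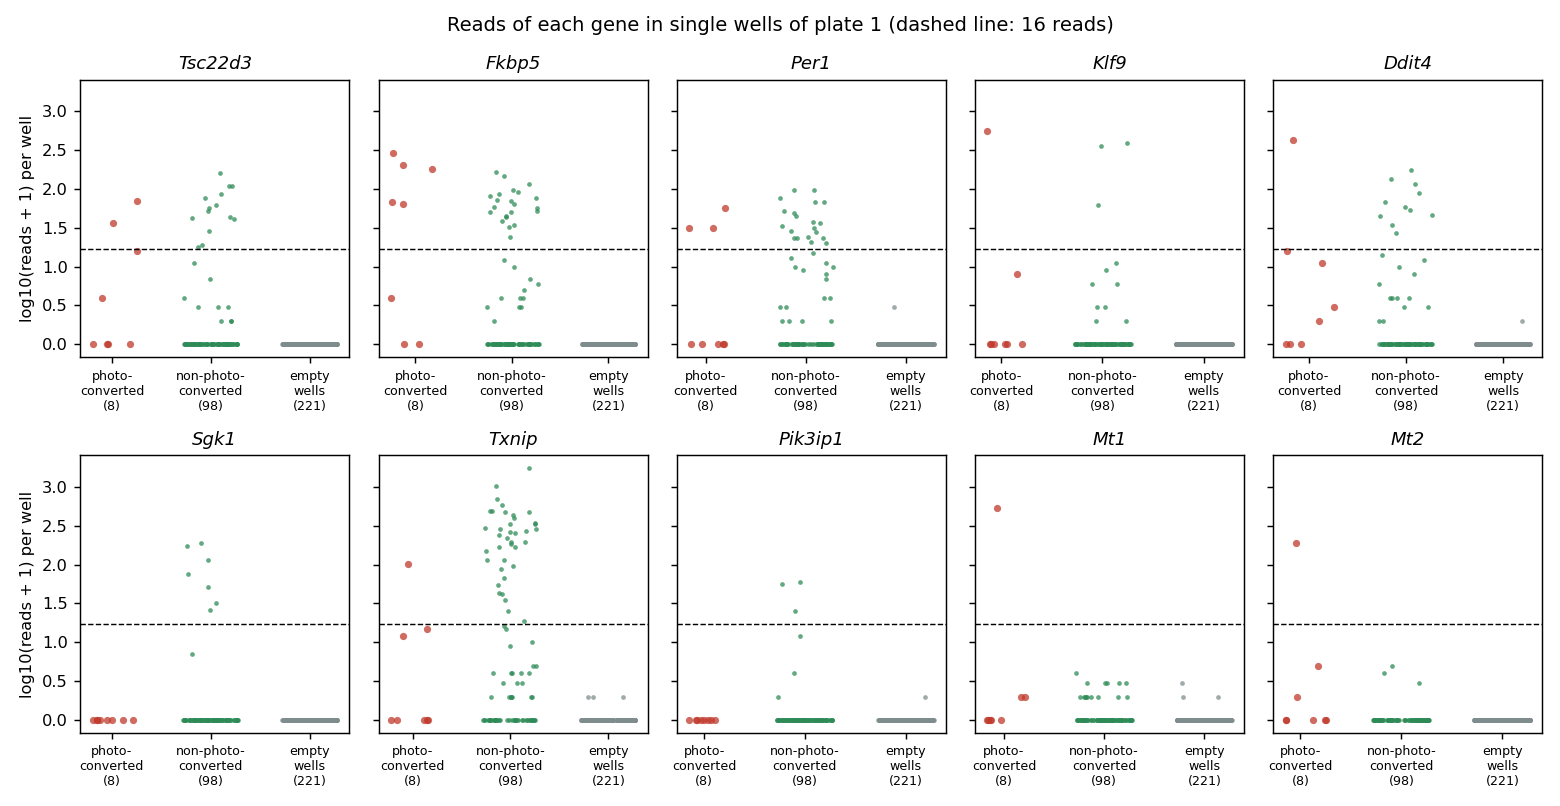
Reads of each gene per well of plate 1, as log10(reads + 1), in 8 photoconverted cells, 98 non-photoconverted cells and 221 empty wells; each point is a well and the dashed line marks 16 reads. Txnip reaches 101 reads in photoconverted cells and 1742 in non-photoconverted cells, whereas Mt1 and Mt2 cross the line in a single photoconverted cell.

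Klf9 (chromosome 19, 23141226 to 23168134, plus strand), a transcription factor induced by glucocorticoids and by thyroid hormone, was detected in few cells. It had 557 reads in photoconverted cell 6, 7 in cell 8 and 0 in the other 6, while the 3 detecting cells among 98 non-photoconverted cells (3.06%, interval 0.636 to 8.69%) held 61, 353 and 388. A further 8 non-photoconverted cells held 1 to 15 reads of it. Cell 6 also held Fkbp5 and Per1, and 2 of the 3 non-photoconverted cells with Klf9 held Fkbp5. Ddit4 (chromosome 10, 59949669 to 59951834, minus strand), also known as REDD1, which restrains the growth kinase mTORC1, had 423 reads in photoconverted cell 4 and at most 15 in the other 7. Its share was 1 of 8 photoconverted cells (interval 0.316 to 52.7%), 20% of depth-matched cells and 11.2% of non-photoconverted cells (interval 5.74 to 19.2%), whose highest value was 174 reads. Sgk1 (chromosome 10, 21882184 to 21999903, plus strand), a kinase induced by glucocorticoids and mineralocorticoids, had 0 reads in all 8 photoconverted cells, where a count of 0 leaves room for a share of up to 37.5%. It was detected in 10% of depth-matched cells and in 7 of 98 non-photoconverted cells (7.14%, interval 2.92 to 14.2%), with 25 to 186 reads. Pik3ip1 (chromosome 11, 3330401 to 3342971, plus strand), a FOXO target that inhibits phosphoinositide 3-kinase, also had 0 reads in all 8 photoconverted cells, against 24, 55 and 58 reads in the 3 detecting non-photoconverted cells. With 8 photoconverted cells, absence of Sgk1 and Pik3ip1 there was not distinguishable from their shares in non-photoconverted cells.

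Txnip (chromosome 3, 96557957 to 96561883, plus strand) was the member with the largest difference in share between photoconverted and depth-matched cells at 16 reads and 5 nearest cells by genes, though not under every setting. It encodes a thioredoxin-binding arrestin-like protein that limits glucose uptake, and its transcription is known to follow intracellular glucose through paired E-box-like motifs, the carbohydrate response element. Photoconverted cells 1 to 8 had 0, 0, 0, 11, 14, 0, 0 and 101 reads of it, while non-photoconverted cells had a lowest of 0, a median of 2.5 and a highest of 1742. The colours overlapped, since 39 of the 98 non-photoconverted cells also lacked any read. Txnip was detected in 1 of 8 photoconverted cells (interval 0.316 to 52.7%), in 42.5% of depth-matched cells and in 38 of 98 non-photoconverted cells (38.8%, interval 29.1 to 49.2%). Its mean was 232 ± 629 CPM in photoconverted and 629 ± 1140 CPM in non-photoconverted cells (SD over cells), a log2 ratio of -1.40, and -0.78 against the 404 CPM of depth-matched cells, a comparison in which 29.5% of the 5259 genes were lower by 2-fold or more and 13.3% higher. The single photoconverted cell with Txnip, cell 8, had 938 genes, the fewest of the 8. Its red fluorescence was 2338 units, against 2202 to 29626 in the 8 cells and at most 1527 in non-photoconverted cells that passed. Without cell 8 the difference from depth-matched cells was -45.7 points instead of -30, and it lay below 0 under each of the 20 other settings tried, from -46.7 to -9.92. The upper end of the photoconverted interval still includes the share of non-photoconverted cells.

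The Txnip promoter is shown because this member passed 25 points in the comparison above and its window holds a match to the carbohydrate response element. The window runs from 250 bases before the RefSeq start to 50 after it (GRCm38.p6, plus strand, chr3:96557707-96558006), and capitals mark the match to 2 copies of CACGNG with 5 bases between them, searched on both strands, which is present in 0.0487% of 32851 such windows.
Txnip promoter: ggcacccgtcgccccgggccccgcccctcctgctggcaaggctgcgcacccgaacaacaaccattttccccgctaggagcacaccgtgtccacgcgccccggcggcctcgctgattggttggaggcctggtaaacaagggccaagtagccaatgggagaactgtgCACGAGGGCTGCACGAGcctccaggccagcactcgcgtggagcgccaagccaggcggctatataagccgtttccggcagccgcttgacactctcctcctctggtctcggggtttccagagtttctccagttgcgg
The match begins 85 bases before the start. The same window held a match to GNACA and TGTNC with 3 bases between them, a palindromic form of the glucocorticoid response element searched in the same way, as did 0.475% of all windows. Among the 18 windows of the 10 genes, 3 held it, at Txnip, Mt1 and 1 of the 6 starts of Sgk1, and it overlapped none of the other motifs searched. The cyclic AMP response element TGACGTCA was in 0 of the 18 and in 1.79% of all windows.

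Genes were ranked by their correlation with Txnip within non-photoconverted cells, and the ends of that ranking are given here. Across the 98 cells, after the relation of each gene's rank to depth was removed, the 3 genes most like Txnip among 856 compared were Itgb7, an integrin chain of gut-homing lymphocytes, Klf6, a zinc-finger transcription factor, and Kbtbd11, each with a Spearman rho of 0.34 (median over the 856 genes, 0.01). Itgb7 was detected in 26 of the 38 cells with Txnip and in 20 of the 60 without it. Klf6 was detected in 21 of 38 and 15 of 60, and Kbtbd11 in 17 of 38 and 9 of 60. The 3 genes at the other end, named after their values were seen, were Fosl2, an AP-1 factor (rho -0.45), Pdcd1, the inhibitory receptor PD-1 (-0.40), and Areg, amphiregulin (-0.39). Areg was detected in 20 of the 38 cells with Txnip and in 45 of the 60 without it. Pdcd1 was detected in 3 of 38 and in 22 of 60, where 10.9 shared cells would follow from each gene's share within depth quartiles. Cells with Txnip had a median of 1772 genes and 9.97% mitochondrial reads, against 1438 genes and 8.76% in cells without it. These correlations share library and plate and are descriptions of these cells. The counts of cells come from the same values that chose the genes, so they are no separate check.

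The metallothioneins Mt1 and Mt2, small cysteine-rich proteins that bind zinc and copper and are induced by metals and by glucocorticoids, were found together in a single cell. Photoconverted cell 5 held 531 reads of Mt1 and 187 of Mt2 (2250 and 793 CPM). In any other well of plate 1 the highest count was 4 for each gene, and 21 wells held 1 to 15 reads of Mt1. Neither was detected in the 98 non-photoconverted cells, and 0 of 98 leaves room for up to 3.06% (3 counts of the total). Detection in a single cell was not particular to Mt1 and Mt2. Cell 5 held 17 genes at 16 reads that no other cell passing the filters had, and photoconverted cells held from 5 to 81 such genes. Cell 5 had 2189 genes, 5 detected ILC2 markers (among 12), 480 reads of Gata3 and 0 detected markers of the T cell, B cell, myeloid, acinar and stromal lists. It held none of the other 8 members at 16 reads. Mtf1, the metal-sensing factor that switches these genes on, and Slc30a1, a zinc exporter under the same factor, had 0 reads in it. They were detected in 9.18% and 2.04% of non-photoconverted cells, so most cells lacked them at 16 reads. Cell 5 also held 29 reads of Nr3c1, 66 of Fth1, 99 of Gclm and 0 of Txnrd1. What raised Mt1 and Mt2 in it was not tested. Mean CPM of both genes in photoconverted cells therefore rests on this cell, and without it neither was detected in a photoconverted cell.

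Mt2 and Mt1 lie next to each other on chromosome 8 (94172664 to 94173568 and 94179082 to 94180327, plus strand, 5513 bases apart). Their coding sequences, from GENCODE M21, are shown because paralogs this close can share reads. Capitals mark the 38 of 186 positions at which they differ (79.6% identity).
Mt1 coding sequence: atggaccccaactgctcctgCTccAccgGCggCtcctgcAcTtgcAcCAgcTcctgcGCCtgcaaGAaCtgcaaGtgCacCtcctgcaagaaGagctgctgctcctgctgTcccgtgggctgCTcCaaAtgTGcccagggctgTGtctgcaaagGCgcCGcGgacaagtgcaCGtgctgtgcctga
Mt2 coding sequence: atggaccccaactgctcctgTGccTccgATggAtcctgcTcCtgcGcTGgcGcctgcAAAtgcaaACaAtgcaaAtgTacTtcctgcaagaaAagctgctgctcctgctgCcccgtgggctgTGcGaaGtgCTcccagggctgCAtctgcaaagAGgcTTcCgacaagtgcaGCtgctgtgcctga
Each holds 20 cysteine codons among 61. The longest stretch shared by the last 200 bases of the transcripts, from which 3'-end reads come, was 12 bases. Between the coding sequences it was 20 bases. The promoters are shown because both genes were found in the same cell. Capitals mark the metal response element core, searched as TGCGCNC or TGCACNC on both strands.
Mt1 promoter (GRCm38.p6, plus strand, chr8:94178839-94179138): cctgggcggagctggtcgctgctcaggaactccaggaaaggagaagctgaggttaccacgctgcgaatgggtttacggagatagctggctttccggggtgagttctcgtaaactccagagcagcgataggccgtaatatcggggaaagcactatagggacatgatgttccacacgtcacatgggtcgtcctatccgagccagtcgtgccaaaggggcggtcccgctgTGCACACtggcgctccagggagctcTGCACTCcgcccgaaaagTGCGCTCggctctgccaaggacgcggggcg
Mt2 promoter (GRCm38.p6, plus strand, chr8:94172368-94172667): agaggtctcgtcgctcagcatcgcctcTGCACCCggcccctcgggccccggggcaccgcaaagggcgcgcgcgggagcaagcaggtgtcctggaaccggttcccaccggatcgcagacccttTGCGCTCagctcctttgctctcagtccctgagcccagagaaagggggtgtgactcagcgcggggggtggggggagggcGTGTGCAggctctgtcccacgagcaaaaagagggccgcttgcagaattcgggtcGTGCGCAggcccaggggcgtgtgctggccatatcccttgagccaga
Mt1 had 3 matches and Mt2 had 4. At least 3 matches were found in 1.97% and at least 4 in 0.517% of the 32851 RefSeq windows, and 25.7% held at least 1, among them 1 window each of Per1, Ddit4, Sgk1 and Txnip.

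Within non-photoconverted cells, detection of Per1 and Tsc22d3 was higher in each deeper quartile. From the quartile of cells with fewest genes (502 to 1020) to that with most (2428 to 4480), Per1 was detected in 4%, 16.7%, 24% and 37.5% of cells and Tsc22d3 in 4%, 8.33%, 16% and 29.2%. Fkbp5 was detected in 0%, 12.5%, 44% and 33.3%. Txnip did not follow depth in this way, with 24%, 37.5%, 56% and 37.5%. When each cell was drawn down to 1000 reads, the expected share of cells with a Txnip read was 20.6%, 31.0%, 36.3% and 15.2% over the quartiles, while Tsc22d3 stayed between 2.12 and 3.96%. After drawing down, Txnip stood at 11.2% in photoconverted, 21.2% in depth-matched and 25.8% in all non-photoconverted cells. Fkbp5 stood at 12.8%, 5.99% and 5.06% in the same order. On this measure 56.4% of the 5259 genes were lower in photoconverted than in depth-matched cells.

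**Figure D3:**
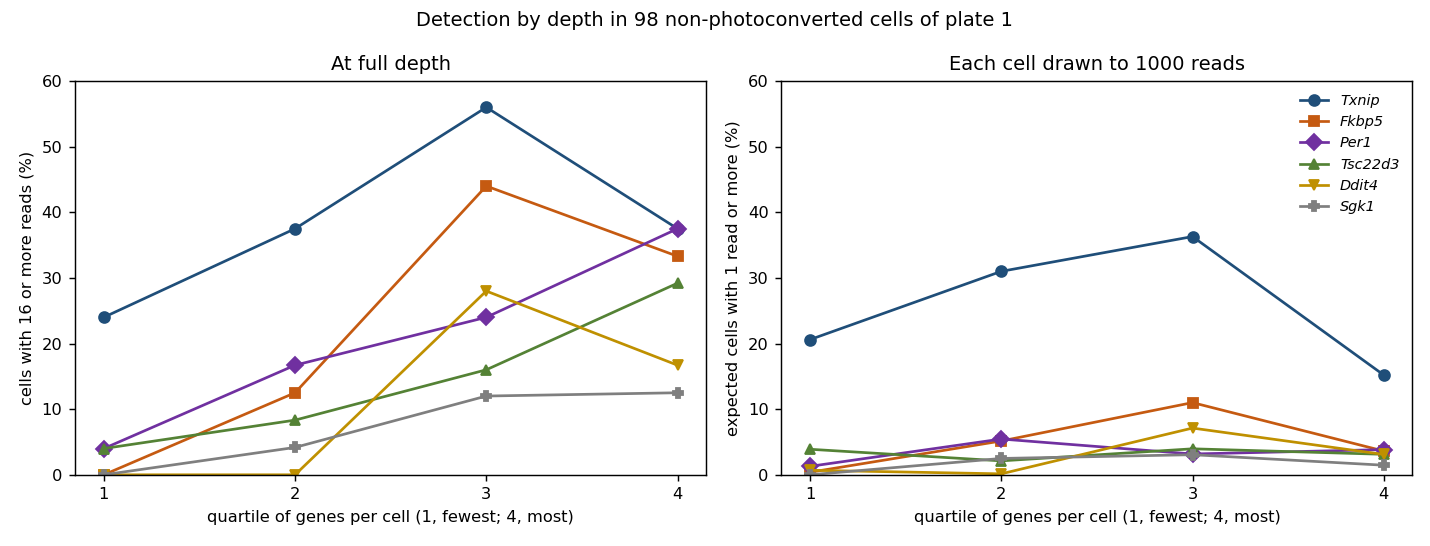
Share of non-photoconverted cells of plate 1 with each gene (%) by quartile of genes per cell, at full depth (left, 16 reads or more) and after each cell was drawn to 1000 reads (right, 1 read or more expected). Per1 and Tsc22d3 climb over all 4 quartiles at left and not at right, and Txnip is highest in the third quartile in both panels (56% and 36.3%).

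The number of members per cell differed little between photoconverted cells and cells matched on genes. Photoconverted cells held a mean of 1.88 ± 1.13 of the 10 genes (SD over 8 cells), depth-matched cells 1.98 and all non-photoconverted cells 1.2 ± 1.14. The difference from matched cells was -0.1 members per cell, and 0.3 with matching on gene reads. At least 1 member was found in 8 of 8 photoconverted cells, in 87.5% of depth-matched cells and in 67.3% of non-photoconverted cells. At most 4 members were found in a cell of either colour: 1 photoconverted cell had 4, and so had 5 non-photoconverted cells. In non-photoconverted cells the mean was 0.320, 0.792, 1.96 and 1.75 members from the lowest to the highest quartile of genes.

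**Figure D4:**
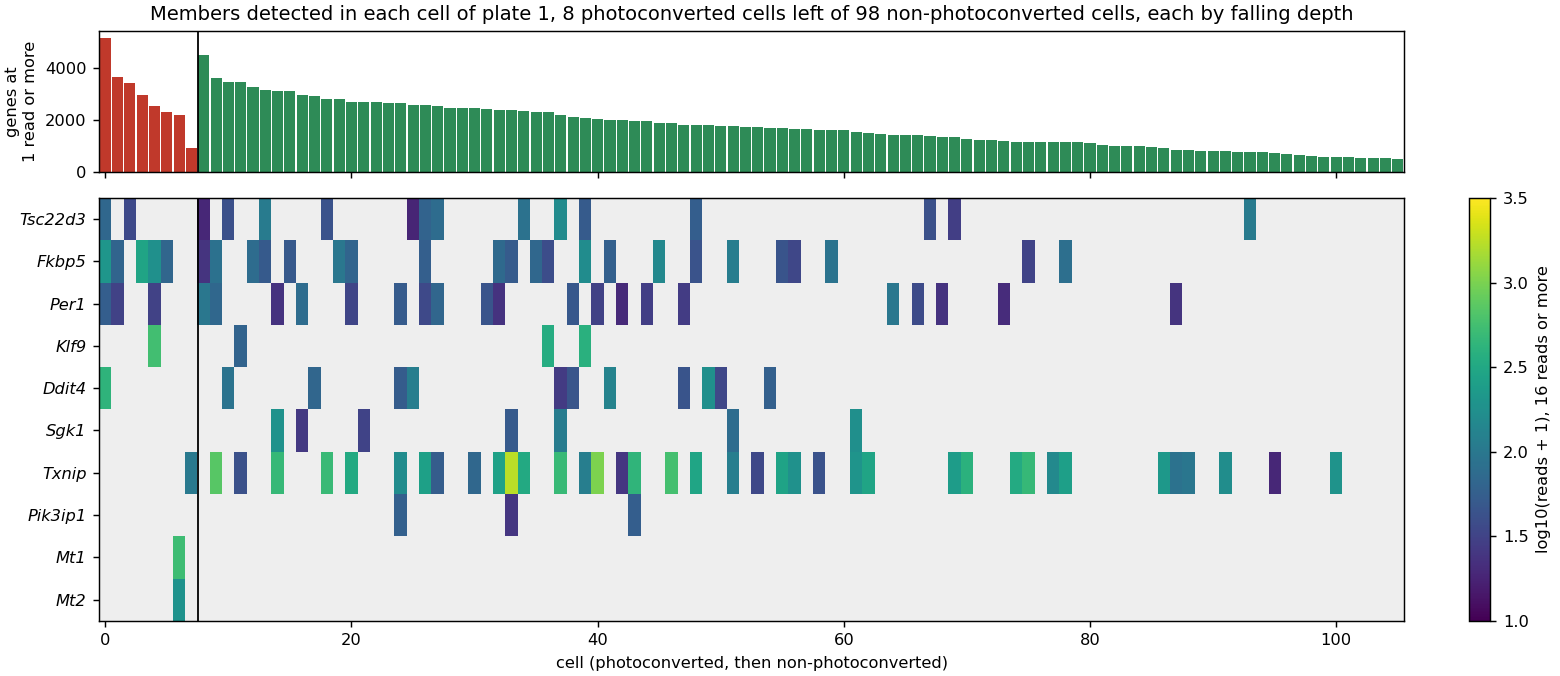
Detection of the 10 genes in each cell of plate 1, photoconverted cells left of non-photoconverted cells, each sorted by falling number of genes (upper bars); colour gives log10(reads + 1) where 16 reads or more were present, and grey marks fewer. The marks for different genes are scattered over cells, and those for Mt1 and Mt2 fall on the same photoconverted cell.

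Fkbp5, Tsc22d3 and Per1 were found together about as often as their shares and depth gave. For each pair, the number of non-photoconverted cells with both genes was set against the number expected from each gene's share within quartiles of depth. Only 5 of 45 pairs had an expected number of at least 5 cells. Fkbp5 and Per1 shared 5 cells where 6.14 were expected (ratio 0.81). Fkbp5 and Tsc22d3 shared 5 (4.34 expected), and Tsc22d3 and Per1 shared 3 (3.96 expected). All 3 occurred together in 1 of the 8 photoconverted cells, against 2 of the 98 non-photoconverted cells. That photoconverted cell was cell 4, which had more genes (5129) than any other cell, and these 2 shares were not matched on depth. Txnip shared 8 cells with Tsc22d3 (ratio 1.37), 12 with Fkbp5 (1.17) and 10 with Per1 (1.18). A ratio at least 25% above 1 was found in 10.6% of 2604693 gene pairs, and in 14.4% of those with 5 to 10 expected cells, so 1 of 5 pairs of members is near that background.

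Txnip and Ddit4 had the lowest ratio among the pairs of members that were given one. They shared 2 cells where 5.42 were expected (ratio 0.37). The ratio was 0.50 when 4 reads counted as detected and 0.37 with 8 depth strata. At 64 reads, with 1 depth stratum and with strata of gene reads, too few shared cells were expected for a ratio. Of 2378 genes paired with Txnip, 18.0% had a ratio of 0.8 or less, 12.3% one at least 25% above 1, and 0.673% one as low as that of Ddit4. These 2378 pairs had 5 or more expected cells, and most genes in them were not as rare as Ddit4, which lay near that limit. The share with so low a ratio among pairs with as few expected cells was not computed. Ratios of 0.8 or less made up 9.29% of all gene pairs and 12.7% of those with 5 to 10 expected cells. Ddit4 and Fkbp5 shared 1 cell where 4.41 were expected. These pairs were singled out after their values were seen. Nr3c1, the receptor itself, was detected in 6 of 8 photoconverted cells, in 55% of depth-matched cells and in 43.9% of non-photoconverted cells. It was present in 16 of the 20 non-photoconverted cells with Per1 (11.6 expected, ratio 1.37), whereas 5.66% of the 3519 genes paired with Nr3c1 reached a ratio 25% above 1. With Fkbp5 (ratio 0.98), Tsc22d3 (0.95), Ddit4 (0.99) and Txnip (0.94) the ratio lay near 1.

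**Figure D5:**
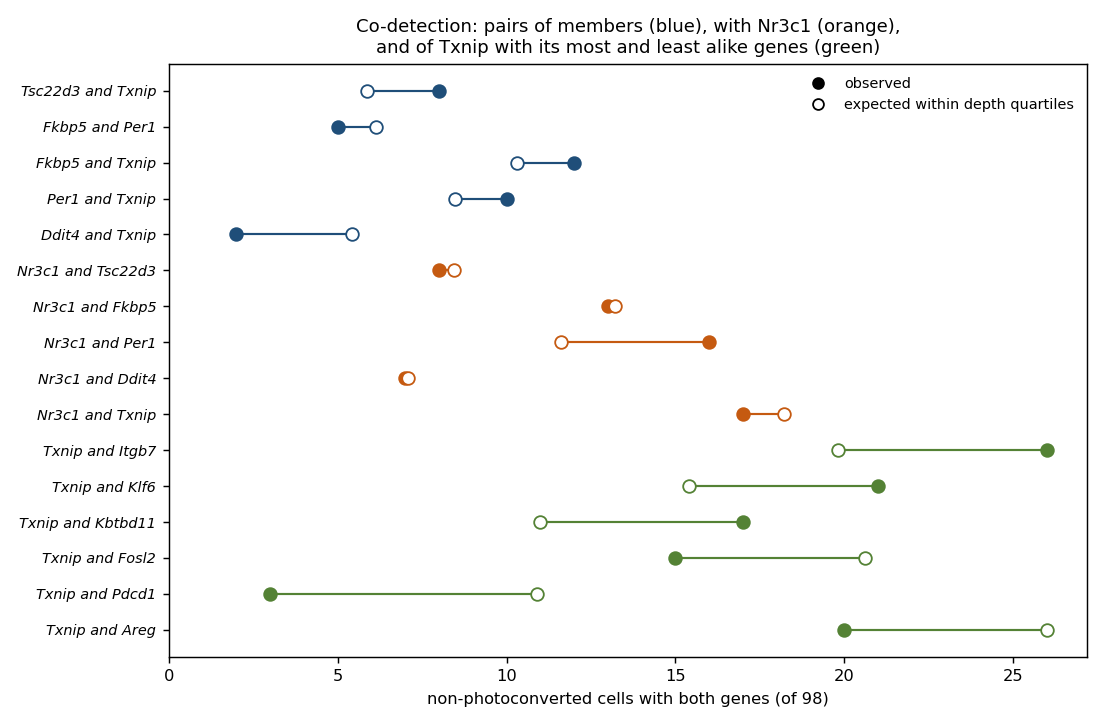
Number of non-photoconverted cells of plate 1 (of 98) with both genes of a pair, observed (filled) and expected from each gene's share within depth quartiles (open), for pairs of members, members with Nr3c1, and Txnip with its most and least alike genes. Txnip with Ddit4 (2 observed, 5.42 expected) and with Pdcd1 (3 and 10.9) lie to the left of expectation, and Nr3c1 with Per1 (16 and 11.6) to the right.

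Genes around these hormone pathways did not share a direction, with list medians from -10 to 10 points, against 2.5 over the 5259 genes, of which 53.4% were higher and 39.9% lower (10.5% and 4.30% by 25 points or more). Of 15 measured genes for the receptor, its chaperones and coregulators, 7 had a larger share in photoconverted than in depth-matched cells, 7 a smaller and 1 an equal one (median 0 points). Hspa8, Hsp90ab1 and Hsp90aa1, chaperones that hold the receptor ready for hormone, had shares of 7, 7 and 6 among the 8 photoconverted cells, against 97.5%, 95% and 85% in depth-matched cells. Of 15 further glucocorticoid-induced genes that passed the filter, 7 were higher, 6 lower and 2 equal (median 0). Nfkbia, the inhibitor of NF-kappaB, was found in 8 of 8 photoconverted cells and 100% of depth-matched cells, Rgs2, a regulator of G protein signalling, in 8 of 8 and 82.5%, and Dusp1, a MAP kinase phosphatase, in 7 of 8 and 80%. These are also immediate response genes to other stimuli. Anxa1 (annexin A1) and Cdkn1a (a cell cycle inhibitor), named after their values were seen, were higher in photoconverted cells by 40 and 32.5 points, and Il7r and Sesn1 stood at -37.5 and -25 points (photoconverted minus depth-matched).

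Of 12 genes of the FOXO and insulin arm, 6 were higher, 5 lower and 1 equal. Pik3cd, a catalytic subunit of phosphoinositide 3-kinase, was found in 2 of 8 photoconverted and 37.5% of depth-matched cells, and Cdkn1b, a cell cycle inhibitor that FOXO factors induce, in 1 of 8 and 52.5%. Of 8 clock genes 1 was higher, 4 lower and 3 equal. Bhlhe40 was found in 4 of 8 photoconverted and 67.5% of depth-matched cells, Csnk1d in 6 of 8 and 47.5%, and Nr1d2, a REV-ERB repressor, in 0 of 8 and 20%. Nr1d1, its relative, chosen after its value was seen, likewise stood at 0 of 8 and 20%. In metal and thioredoxin handling 6 of 10 were higher and 4 lower (median 3.75). Txn1, the thioredoxin that the Txnip protein binds, was found in 7 of 8 photoconverted cells, in 50% of depth-matched cells and in 34.7% of non-photoconverted cells, whereas the ferritin chains Fth1 and Ftl1 were each found in 7 of 8 and in 85% and 82.5% of depth-matched cells. In mTORC1 control 7 of 9 were higher, 1 lower and 1 equal (median 10), while the median log2 ratio of their CPM against non-photoconverted cells was -0.20. Rps6kb1, the S6 kinase, was found in 0 of 8 photoconverted and 55% of depth-matched cells, Rheb in 4 of 8 and 35%, and Atf4 in 6 of 8 and 22.5%. Of 15 receptors for fasting-related hormones 7 were in the table and 3 passed the filter, all 3 lower in photoconverted cells: Adipor1 (1 of 8 and 22.5%), Adipor2 (3 of 8 and 45%) and Pparg (1 of 8 and 30%). These differences have no replicate check.

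Most cells that carried these transcripts also carried markers of the labelled cell type. Of the 74 cells with at least 1 member, 66 held at least 3 of 12 ILC2 markers and 67 had Gata3, the transcription factor on which ILC2 depend. Among all 106 cells, with or without a member, 87 held at least 3 of these markers. Txnip was the member with most detecting cells outside this count, at 32 of 39 cells with 3 markers, a share near the 87 of 106 over all cells. T cells also express Txnip and Pik3ip1, and 4 of 7 T cell markers were in the table: Cd3e was detected in 0 cells, at least 1 of the 4 in 12 cells (2 of them photoconverted), and 3 or more in 0. Of the myeloid list 2 markers were in the table, and at least 1 of them was detected in 35 cells, 6 of the 8 photoconverted ones among them. Their summed level ranged from 0 to 937 CPM in photoconverted and from 0 to 2550 CPM in non-photoconverted cells. The counts of cells with markers were not matched on depth, and the photoconverted cells were deeper. The mast cell or basophil and the endocrine list had 0 markers in the table, and the other lists 1 to 3, too few to name a cell: at least 1 was detected in 5 cells for B cells, 5 for NK or ILC1, 3 for ILC3, 9 for stromal or endothelial and 0 for acinar cells, none of them photoconverted. Summed T cell markers ranged from 0 to 327 CPM in photoconverted and from 0 to 2130 CPM in non-photoconverted cells. The part of these markers in the results above was not tested.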

How the data were processed

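The plates hold index-sorted pancreatic ILC2 sequenced by SORT-seq, per the labels' protocols. The deposited count table gives whole reads of each row in each well. The deposited sort record gives each well's phenotype and its red fluorescence intensity in arbitrary units. The submitters' processing notes name mm10, STAR, STARsolo and edgeR, without versions or roles. The counts are reads and not molecular identifiers, so PCR copies are included. The row names fitted plate 1 alone, and plates 2 to 4 were not used by gene. The design has 1 sample, so no test could be fitted and edgeR was not run.

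The members and gene lists were chosen with earlier results of these data known. Detection needed 16 reads, and matching took the 5 nearest cells by log genes. Drawing down to 1000 reads used the exact hypergeometric chance. CPM excluded spike-in rows, and 10 was added before ratios. Named genes were all members, the 3 most like a member detected in at least 25 non-photoconverted cells (Txnip alone), and the 3 most often detected of each list. Genes named beyond this rule were chosen after their values were seen. A gene that the rule selects is not reported here. No doublet caller was run on sorted single cells. The scripts were tested on simulated data. Python 3.11.15, pandas 2.3.3 and scipy 1.17.1 were used. Alternatives covered detection limits, matching, cell and gene filters, scaling and each photoconverted cell left out. Coordinates are from GENCODE M21 and promoter windows from RefSeq GRCm38.p6.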

Additional observations from a re-analysis of the deposited data

How the results depend on the processing

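No paired analysis was possible because plate 1 is a single sample. With 4 reads as detection, 7 members were higher in photoconverted cells and 3 lower, and likewise 7 and 3 without depth matching. At 64 reads and with matching on reads of genes, 3 members were lower. Leaving out 1 photoconverted cell at a time gave 3 to 4 members higher and 5 to 6 lower, a median difference in share of -14.3 to -1.43 points (5 at 4 reads, 0 at 64 reads, 5.99 without matching), and -0.37 to 0.09 members per cell relative to depth-matched cells. The number of member pairs at a ratio at least 25% above 1 was 2 of 9 at 4 reads, 0 at 64 reads, where 0 pairs had an expected number of at least 5, and 3 of 3 with a single depth stratum. Scaling to spike-ins, which moved the median log2 ratio of all genes to 0.98, gave 0.19 for Tsc22d3, 0.62 for Per1 and 2.10 for Ddit4. Sgk1 was lower in photoconverted cells under each of 20 alternatives, but its 0 reads in all 8 of them allowed no higher share. Txnip was lower and Fkbp5 higher under each alternative. The larger of Txnip and Fkbp5 changed: 64 reads gave -20 and 25 points, and no matching -26.3 and 40.1. Mt1 at 1 read (35 against -32.5) and Mt2 at 4 reads (25 against -17.5) also exceeded Txnip. Besides cell 5, these shares rest on 1 read of Mt1 in each of cells 6 and 7 and 4 reads of Mt2 in cell 2. For Mt1, 3 empty wells also held a read, with at most 2 reads. Per1, Klf9, Ddit4 and Tsc22d3 changed sign among them. With 8 photoconverted cells on 1 plate, each cell moves a share by 12.5 points.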
